A study of Mus musculus with 12 samples.

Results

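Mutant collagen X in a growth plate whose chondrocytes kept XBP1 was compared with the wildtype growth plate across the genome, gene group by gene group. ColXN617K mice carry the p.Asn617Lys substitution knocked into Col10a1, with a loxP site left downstream of the coding sequence, and their Xbp1 was not targeted. Wildtype mice carry neither change. C/X mice, used only to show where ColXN617K differs, carry the same collagen X substitution, and their Xbp1 has lost exon 2 wherever a Col2a1-driven Cre recombinase is active, and Xbp1CartΔEx2 mice carry that deletion alone. All were 2 weeks old and of mixed background, and the sex was not given. For each array, 1 mouse gave the hypertrophic zone of 1 growth plate from the upper tibia, which was cut from frozen sections by hand, and its RNA was amplified before labelling. There were 3 arrays of ColXN617K and 3 of wildtype, 6 of the 12 in the series. Of 45281 probes on the array, 12023 were above background on at least 3 of the 12 arrays and were tested, and 9866 of these had 1 gene symbol, which gave 7642 genes with 1 probe each, the brightest. Values are normalized log2 intensities, and a difference is ColXN617K minus wildtype on that scale. A gene was called, and is described as having risen or fallen, at a fold difference of at least 2 with a Benjamini-Hochberg adjusted p of at most 0.01 in limma.

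Collagen X is a short-chain collagen made only by hypertrophic chondrocytes, the swollen cells at the bottom of the growth plate that mineralize their matrix and hand it over to invading vessels and bone cells. When a collagen X chain cannot fold, it is held in the endoplasmic reticulum, where the sensors PERK, ATF6 and IRE1 switch on the unfolded protein response. IRE1 acts by splicing the mRNA of Xbp1. PERK slows translation and raises ATF4, which induces Ddit3 (CHOP) and genes for amino acid supply.

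The arrays did not all behave alike. ColXN617K replicate 3 had 17.1% of its probes above background, against 26.1% and 28.4% on the other ColXN617K arrays and 17.3% to 17.7% on the wildtype arrays. Its mean correlation with its own group was 0.877, against 0.935 and 0.926 for the others. Among the tested genes 1148, or 15.0%, were called, 569 of them higher (7.45%) and 579 lower (7.58%), and without this array 961 were higher and 805 lower. The scaling mattered more for the balance of directions. With arrays scaled by their medians over all probes the median difference of all genes was 0.76, against -0.04 after quantile normalization, and 504 genes were then higher and 64 lower. In no gene list below were more than 3 genes then lower, cell markers aside. The directions given for groups of genes below are therefore relative to the median of all genes, and the groups whose direction was not the same under all 4 scalings tried are named. The gene lists and their members were chosen with earlier results of these data known. The share of a list called, also where set beside 7.45% higher and 7.58% lower of all genes or ranked among lists, is thus a description and not a test. Of the 178 called genes named here, 126 were called with each of the 12 arrays left out in turn.

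The dissected zone also held other cells, and the markers of some of them moved with the genotype. Of 14 endothelial markers tested, 12 fell, with a median of -2.62, and their summed intensity was 1892, 2152 and 2102 on the ColXN617K arrays and 23440, 9566 and 21620 on the wildtype arrays. The genes of red cells fell in 5 of 6 cases, and their summed intensity was 7436, 3527 and 14840 on the ColXN617K arrays and 50360, 40940 and 60020 on the wildtype arrays. All 3 osteoclast genes tested fell (Acp5, Ctsk and Mmp9), with a summed intensity of 5910, 8643 and 10040 on the ColXN617K arrays and 26920, 23740 and 33590 on the wildtype arrays. Of 9 genes of macrophages and monocytes 3 fell (Tyrobp, Lyz1 and Laptm5), and the sum was 2746, 2900 and 3774 on the ColXN617K arrays and 12720, 7315 and 13920 on the wildtype arrays. The groups did not overlap in any of these sums. With arrays scaled by their medians over all probes 9 endothelial and 5 red cell genes were lower, and no osteoclast or macrophage gene was. The 7 tested genes of skeletal muscle went the other way in value, with a median of 2.17 and none called, and a summed intensity of 16090, 4000 and 7225 on the ColXN617K arrays and 3391, 2926 and 2371 on the wildtype arrays. None of the tested genes of osteoblasts and bone (6), neutrophils (3), B lymphocytes (1) and adipocytes (1) was called. Of 5 genes of pericytes and smooth muscle 1 rose and 1 fell. In such bulk samples fewer cells of a type and less RNA per cell cannot be told apart. Eif2s3y, on the Y chromosome, had 10.21, 10.67 and 9.05 on the ColXN617K arrays and 7.01, 8.55 and 6.93 on the wildtype arrays, and Xist, which is expressed from the inactive X chromosome, had 6.81, 6.31 and 6.65 on the ColXN617K arrays and 9.42, 6.80 and 9.41 on the wildtype arrays. Xist was above background on wildtype replicates 1 and 3 and on none of the ColXN617K arrays, so these markers were not balanced between the genotypes. What part these markers have in the results below was not tested.

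The label of the tissue could be checked against markers of the chondrocyte. None of 9 tested genes of the cartilage matrix and its regulators was called, and Acan, the large aggregating proteoglycan, stood at 14.09, 14.07 and 14.10 in ColXN617K and 14.08, 13.88 and 14.16 in wildtype. Col2a1, the main cartilage collagen, had 13.99, 14.06 and 13.79 in ColXN617K and 14.22, 14.07 and 14.22 in wildtype. The ranges overlapped for Acan. For Col2a1 all ColXN617K arrays lay below all wildtype arrays, though only just (14.06 against 14.07). Acan and Col2a1, like Cdkn1c, Snorc, Comp and Igf2 below, lay near the top of the scale, where the highest value on every array was 14.61 and a difference could go undetected. The 10 tested markers of hypertrophic chondrocytes were different. 6 of them fell, with a median of -1.78. Panx3 was erratic among mice of the same genotype, with 12.43, 11.04 and 8.57 in ColXN617K and 8.38, 12.64 and 12.94 in wildtype, and Vegfa, the vascular growth factor, had 10.92, 10.77 and 9.78 in ColXN617K and 10.40, 10.95 and 10.50 in wildtype, also overlapping. Xbp1 itself had 11.68, 11.87 and 11.25 in ColXN617K and 10.49, 11.03 and 10.67 in wildtype, a difference of 0.87 that was not called (adjusted p = 0.0286).

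**Figure D1:**
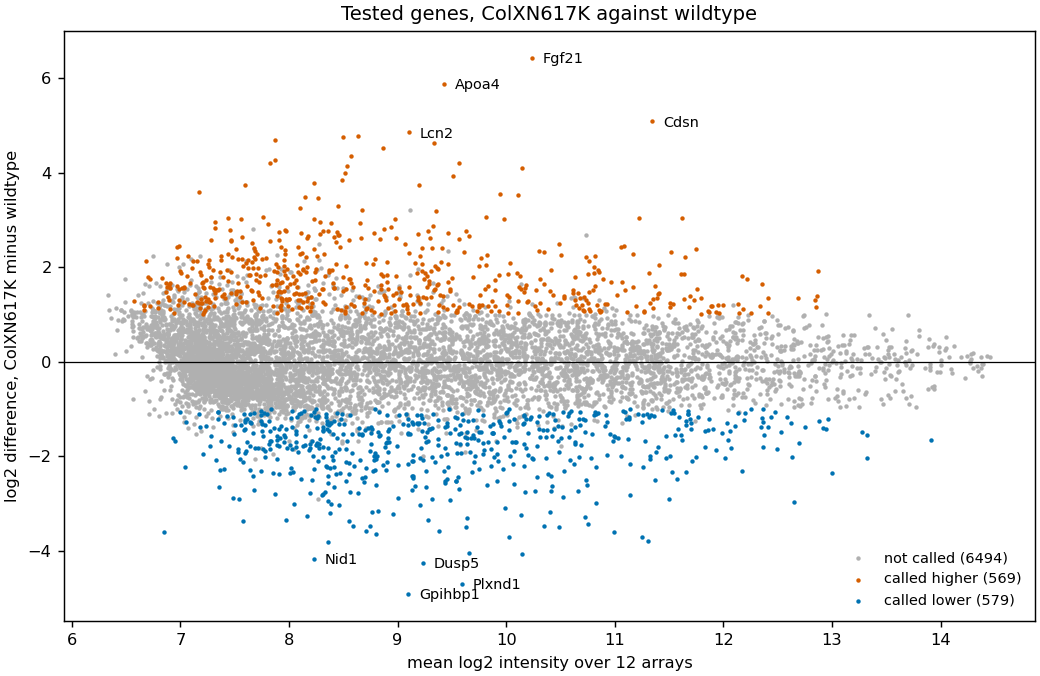
Log2 difference between ColXN617K and wildtype for the 7642 tested genes (vertical axis) against their mean log2 intensity over the 12 arrays (horizontal axis), 1 point per gene, with 3 arrays per genotype. The 569 genes called higher are orange, the 579 called lower are blue and the rest grey, and the largest changes are named.

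Most changes were moderate. Of the 879 probes called higher (7.31% of those tested), 366 differed by 1 to 1.5 on the log2 scale and 53 by over 3, and of the 861 called lower (7.16%), 341 and 62 did. Of the rises, 406 (46.2%) were not well above background on any wildtype array, as were 24.4% of all tested probes. Such a probe was tested only if it was above background on at least 3 arrays of the other genotypes. A high ColXN617K value helps it pass, so this filter alone can raise the share among the rises, and no conclusion is drawn from it. The falls likewise held a larger share of probes dim in the lower genotype than the tested probes did. Of the 861, 103 were not well above background on any ColXN617K array, as were 481 of the 12023 tested probes. For such genes the fold difference has only a lower bound, given as "at least". It sets the mean of the brighter group against, on each array of the dimmer one, the higher of its own value and the dimmest probe above background. ColXN617K replicate 3 was the array nearest to wildtype in 51.5% of the probes called higher and 43.1% of those called lower, and 806 and 802 of them were called without it. The probes of a gene mostly shared the sign, as in 376 of the 446 genes with several tested probes and a call. In only 117 of the 446 were all probes called in 1 direction, and only Mcm6 and Ccdc85b had probes called in both directions.

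Among the sensors and transcription factors of the unfolded protein response, 3 of 13 tested genes rose and 1 fell. Ddit3, the gene of the stress transcription factor CHOP, had 13.26, 12.85 and 13.43 in ColXN617K and 11.02, 10.96 and 10.42 in wildtype, a difference of 2.38 (standard error 0.26, adjusted p = 5.21e-05, limma, n = 3 mice each). Cebpb, which encodes a partner of CHOP, had 9.75, 9.41 and 9.09 in ColXN617K and 8.07, 8.21 and 7.87 in wildtype, and rose by 1.37. Both genes had all ColXN617K arrays above all wildtype arrays. Groups that did not overlap, in either direction, were common, at 42.3% of all tested genes. Creb3l2, a membrane-bound factor of secretory chondrocytes known as BBF2H7, rose at least 1.87-fold. The exception was Mbtps1, the site-1 protease that frees ATF6 and its relatives from the membrane, with 7.39, 7.34 and 7.37 in ColXN617K and 8.73, 8.65 and 8.71 in wildtype (-1.33, adjusted p = 0.000488, limma). Atf4 (0.76), Nfe2l1 (0.26) and Atf5 (-0.02) were not called. The effectors downstream of PERK came next after amino acid supply in the share of genes called, cell markers aside, with 10 of 14 risen, none fallen and a median of 1.68, beside -0.04 for all genes. They included Steap1, a metalloreductase (2.62), the lipoprotein receptor Vldlr (2.32) and Ppp1r15a, whose product GADD34 restores translation (1.61). In amino acid synthesis and uptake 9 of 12 rose and 1 fell. The cationic amino acid transporter Slc7a3 had 12.05, 12.20 and 12.27 in ColXN617K and 8.54, 9.56 and 7.83 in wildtype, and the mitochondrial folate enzyme Aldh1l2 rose at least 11.9-fold. The 1 that fell was Slc38a2, a glutamine transporter known as SNAT2, with 12.21, 11.83 and 10.29 in ColXN617K and 13.34, 13.35 and 13.19 in wildtype (-1.85, adjusted p = 0.00477, limma). Its lowest array was ColXN617K replicate 3, and without that array the adjusted p was 0.00226.

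Some of these genes carry known stress motifs close to their start, and the letters are shown here for 4 genes of each kind because the genes rose together. The windows come from RefSeq promoters on GRCm38.p6, from 250 bases before to 50 after the start of a gene, searched on both strands, and 6214 of the 7642 tested genes had one. The first motif, TGATGNAA, is the composite site for ATF4 with a C/EBP partner. It was in 1096 of 27025 promoters (4.06%), in 2.35% of those of tested genes and in 27 of 465 of the genes called higher (5.81%). In the windows below, 5′ to 3′ on the strand of the gene, the capitals mark the motif or its reverse complement.
Fgf21, chr7:45615611-45615640 (- strand): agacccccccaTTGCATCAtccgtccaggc
Asns, chr6:7693214-7693243 (- strand): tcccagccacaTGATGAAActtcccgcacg
Slc7a11, chr3:50443661-50443690 (- strand): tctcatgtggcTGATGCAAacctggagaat
Herpud1, chr8:94386306-94386335 (+ strand): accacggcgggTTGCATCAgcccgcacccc
Slc7a11 has a second copy of the motif on the other strand, closer to its start. Other members of these lists and of the aminoacyl-tRNA synthetases that rose hold the motif too, Chac1, Nupr1 and Tars before their start and Trib3 and Iars after it. The second motif, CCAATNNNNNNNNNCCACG, is the ER stress response element bound by ATF6 with NF-Y. It was in 35 of 27025 promoters (0.130%), in 13 of 6214 of the tested genes, in 6 of 465 of those called higher and in none of 454 of those called lower. No copy of the first motif overlaps it in the windows below, and Hsp90b1 has a second copy of the element on the other strand.
Hspa5, chr2:34772020-34772049 (+ strand): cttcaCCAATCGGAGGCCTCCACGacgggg
Hsp90b1, chr10:86705632-86705661 (- strand): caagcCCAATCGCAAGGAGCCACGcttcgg
Creld2, chr15:88819515-88819544 (+ strand): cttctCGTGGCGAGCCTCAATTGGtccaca
Derl3, chr10:75893237-75893266 (+ strand): tctacCGTGGGACTTCCCCATTGGctagcc
Of the tested list members with a promoter, the element was in 6 of 19 chaperones and folding enzymes and in 2 of 13 genes of ER-associated degradation. The 4 and 1 of these that rose were the 4 shown and Pdia6, a disulfide isomerase, and Calr, Ero1b and Syvn1 held it and were not called. Derl3 works in the export of misfolded proteins for degradation. Hspa5, the chaperone BiP, had 9.94, 10.41 and 8.47 in ColXN617K and 6.76, 7.10 and 6.65 in wildtype, at least 3.90-fold higher. Creld2, a folding factor of the endoplasmic reticulum, had 12.63, 12.59 and 12.65 in ColXN617K and 10.07, 10.40 and 10.06 in wildtype. Hspa5 varied far more among the ColXN617K arrays than Creld2 did. A match of letters is a description of the sequence and not a measured site.

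Genes that make ribosomes rose in part. In the nucleolus and rRNA processing 6 of 22 tested genes rose (27.3%, beside 7.45% of all genes) and none fell. Without ColXN617K replicate 3 the count of rises was 10. Nop58, a core protein of snoRNA particles, had 10.98, 11.32 and 10.87 in ColXN617K and 8.34, 9.07 and 8.98 in wildtype (2.26, adjusted p = 5.45e-05, limma), without overlap. Bop1, which is needed for the large subunit, rose by 1.68 and nucleolin, Ncl, by 1.29. Of 23 initiation factors 4 rose, among them Eif2b3, a subunit of the exchange factor that PERK signalling restrains, with 10.31, 10.29 and 10.57 in ColXN617K and 7.99, 7.83 and 7.59 in wildtype, and Eif4ebp1, the repressor of cap-dependent initiation (1.60). Of 50 cytosolic ribosomal protein genes 2 rose (Rpl4 and Rps15) and 3 fell (Rpl29, Rpl30 and Rpl21), a share of 10.0% beside 15.0% of all genes. Their median was 0.06, and its side of the median of all genes depended on the scaling. Of 66 mitochondrial ribosomal protein genes 8 rose and 3 fell, a share of 16.7%. Mrpl16 rose at least 2.55-fold, and Mrpl53 had 8.12, 8.42 and 8.49 in ColXN617K and 10.22, 9.84 and 10.10 in wildtype (-1.71). In splicing 1 of 26 genes was called, Snrpa (1.02), with a median of -0.03 whose side of all genes also depended on the scaling.

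Few subunits of the respiratory chain were called. None of 29 NADH dehydrogenase genes rose and 2 fell (6.90%, beside 7.58% of all genes). They were Ndufs4 (9.49, 9.59 and 8.97 in ColXN617K, 11.00, 10.98 and 10.80 in wildtype) and Ndufa11. None of 16 oxidase and reductase subunits was called, and 1 of 14 ATP synthase genes fell, Atp5l (-1.74, adjusted p = 0.000102, limma). Without ColXN617K replicate 3, 2 NADH dehydrogenase genes rose and 4 fell. Of 23 genes of mitochondrial import and protein quality control 2 rose (8.70%, beside 7.45% of all genes). They were Timm8a1 (10.25, 10.51 and 9.37 in ColXN617K, 7.48, 7.81 and 8.34 in wildtype) and Tomm6 (2.42). Cycs, cytochrome c, rose too, with 11.98, 12.13 and 11.78 in ColXN617K and 10.28, 10.54 and 10.51 in wildtype (1.52, adjusted p = 8.74e-05, limma). Hspa9, the chaperone that draws proteins into the matrix, had 14.02, 14.16 and 14.16 in ColXN617K and 13.12, 13.11 and 13.18 in wildtype. The ranges were far apart, but the difference of 0.98 was just under the fold minimum.

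In metabolism the called genes were scattered and often opposed within a list. Srm, which makes spermidine, had 11.84, 12.12 and 12.02 in ColXN617K and 9.71, 9.33 and 9.66 in wildtype (2.42, adjusted p = 3.24e-05, limma). Odc1, which feeds it, had a difference of 0.67 and was not called. Ass1, an enzyme of arginine synthesis, rose at least 1.24-fold. In lipid metabolism Fads3 (2.42) and Fads1 (1.05), fatty acid desaturases, rose, while the kinases of the mevalonate pathway Mvk (-1.28) and Pmvk (-1.02) and the sterol regulator Srebf2 fell, the last just at the fold minimum (11.63, 11.36 and 11.66 in ColXN617K, 12.65, 12.47 and 12.52 in wildtype). Apoe, the lipid carrier, was not well above background on any ColXN617K array, and fell at least 2.11-fold, and Acads, a short-chain acyl-CoA dehydrogenase, fell by 1.49. In the apolipoprotein Apoa4 ColXN617K replicate 3 was the highest array, with 11.87, 11.58 and 13.50 in ColXN617K and 6.38, 6.61 and 6.33 in wildtype. The list of glycolysis and the hypoxia response had 2 of 22 called, both higher (9.09%, beside 7.45% of all genes). Egln3, an oxygen-sensing prolyl hydroxylase, had 9.33, 8.97 and 8.54 in ColXN617K and 7.77, 7.22 and 6.85 in wildtype, and the phosphofructokinase Pfkl rose by 1.07. Without ColXN617K replicate 3 the count was 5. Among the targets of the antioxidant factor NRF2 only Hmox1, heme oxygenase, rose, by at least 2.40-fold, and Gpx1 fell (-1.06). These were 10.0% of the 20 tested, beside 15.0% of all genes called.

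**Figure D2:**
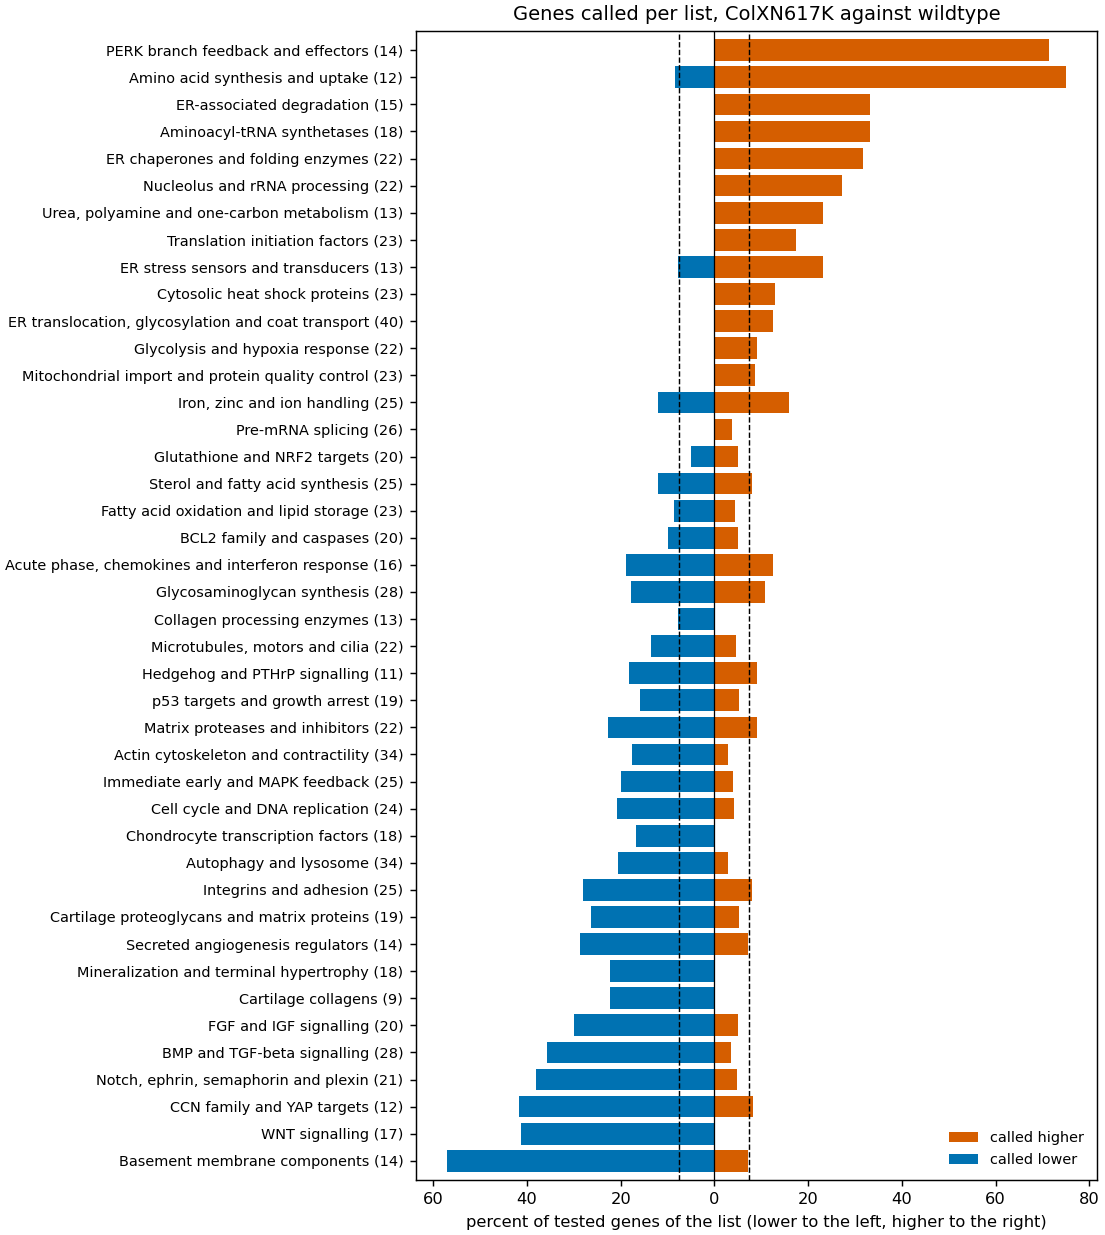
Percent of the tested genes of each list called higher (orange, to the right) and lower (blue, to the left) in ColXN617K against wildtype, with the number of tested genes beside the name. The dashed lines mark 7.45% and 7.58%, the shares of all 7642 tested genes called higher and lower, and the lists are ordered by the difference of their shares.

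Stress outside the endoplasmic reticulum was uneven. Of 23 heat shock genes 3 rose (13.0%, beside 7.45% of all genes). They were Hspa2 (11.50, 11.74 and 11.19 in ColXN617K, 9.10, 9.04 and 9.25 in wildtype), Hspa1a, which was at least 1.20-fold higher, and Hsph1. The constitutive Hspa8 had a difference of 0.00 (95% interval -0.36 to 0.36). Growth arrest genes split, with the CDK inhibitor Cdkn2b risen at least 1.29-fold and the polo-like kinase Plk2 fallen, from a list of 19 in which 1 rose and 3 fell. Plk2 had 7.43, 7.39 and 6.47 in ColXN617K and 10.47, 10.41 and 9.86 in wildtype (-3.15, adjusted p = 5.26e-05, limma). Cdkn1c, which marks non-dividing hypertrophic cells, had 14.51, 14.61 and 14.49 in ColXN617K and 14.45, 14.37 and 14.61 in wildtype, and Cdkn1a had a difference of -0.18, neither called. Of 20 genes of the BCL2 family and caspases 15.0% were called, the same share as of all genes. The pro-apoptotic Bcl2l11, known as BIM (-1.53), and Bad (-1.29) fell, and Cycs, given above, rose. With arrays scaled by their medians over all probes 2 of the list rose and none fell. Mcl1, which protects cells, was at 11.47, 11.61 and 9.91 in ColXN617K and 10.86, 10.28 and 10.79 in wildtype, with replicate 3 the lowest of all. Autophagy and lysosome genes fell in 7 of 34 cases (20.6%, beside 7.58% of all genes). Among them were the initiating kinases Ulk1 (-1.23) and Ulk2 (-1.31) and the membrane-binding Wipi1 (-1.42). The 1 that rose was Npc1, the lysosomal cholesterol exporter, with 12.64, 12.75 and 12.88 in ColXN617K and 9.81, 9.94 and 9.39 in wildtype (3.04, standard error 0.19, adjusted p = 8.92e-07, limma). With arrays scaled by their medians over all probes none of the 7 falls was called.

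Genes of the acute phase and of interferon went apart. Lcn2, lipocalin 2, had 11.46, 11.11 and 11.33 in ColXN617K and 6.41, 6.38 and 6.55 in wildtype, at least 12.6-fold higher (adjusted p = 8.33e-09, limma), and the chemokine gene Cxcl1 rose at least 9.63-fold. Ifitm3, an antiviral membrane protein, had 7.43, 7.37 and 6.90 in ColXN617K and 10.74, 9.82 and 11.18 in wildtype (-3.34), and Ifitm1 and Ifit3 also fell. The receptor signal transducer Stat3 (-0.96) and its feedback inhibitor Socs3 (-0.39) were not called. Il17d was the only one of 18 interleukin and receptor genes called. It had 9.34, 9.34 and 9.69 in ColXN617K and 13.13, 13.04 and 13.00 in wildtype (-3.60, adjusted p = 2.56e-07, limma), and its ranges were over 3 log2 units apart.

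Of 25 immediate early and MAP kinase feedback genes 5 fell and 1 rose, and their median was -0.44, beside -0.04 for all genes. Of the 5, 3 were phosphatases that ERK signalling induces as its own brake. Dusp5 had 7.36, 7.53 and 6.46 in ColXN617K and 11.47, 11.31 and 11.30 in wildtype (-4.25, adjusted p = 1.22e-06, limma), Dusp6 had 8.62, 9.35 and 8.92 in ColXN617K and 12.03, 11.33 and 12.09 in wildtype, and Dusp4 fell at least 2.40-fold. Junb had 7.74, 7.64 and 9.10 in ColXN617K and 11.01, 11.14 and 10.57 in wildtype (-2.75), with replicate 3 nearest to wildtype, whereas Jun, its relative in the AP-1 complex, rose at least 1.23-fold. With arrays scaled by their medians over all probes 2 of the list fell and none rose.

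Most genes of the structural matrix of cartilage were not called, but a larger share of them fell than the 7.58% of all genes. Of 9 cartilage collagens 2 fell (22.2%). Col10a1 itself, the mutated gene, had 8.43, 8.48 and 9.78 in ColXN617K and 11.75, 12.47 and 11.97 in wildtype (-3.17, standard error 0.40, adjusted p = 0.000135, limma), and Col27a1 fell by 2.31. Among proteoglycans and other matrix proteins 5 of 19 fell (26.3%) and 1 rose. Mgp, the matrix Gla protein that inhibits calcification, had 9.24, 9.12 and 9.16 in ColXN617K and 12.68, 13.22 and 12.97 in wildtype (-3.78, adjusted p = 3.14e-06, limma). The collagen-binding Chad fell by 1.99, tenascin C (Tnc) by 2.11 and the WNT antagonist Frzb by 2.04, and Prelp rose by 1.78. Snorc (0.13) and Comp (-0.22), both bright on every array, were not called. Of 13 collagen processing genes only Crtap, a partner in prolyl 3-hydroxylation, was called (-1.28). In glycosaminoglycan synthesis 3 of 28 rose and 5 fell, with arrays scaled by their medians over all probes 2 rose and none fell, and the side of the list median relative to all genes depended on the scaling. Papss2, which activates sulfate, rose by 1.34, and Xylt2, which starts the chain on the core protein, had 8.53, 8.03 and 9.46 in ColXN617K and 11.21, 10.46 and 10.82 in wildtype (-2.16).

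Of 22 matrix proteases and their inhibitors 5 fell (22.7%, beside 7.58% of all genes) and 2 rose. Under median scaling over all probes none fell. Mmp13, the main collagenase of hypertrophic chondrocytes, had 11.43, 12.13 and 11.22 in ColXN617K and 13.93, 13.67 and 14.25 in wildtype (-2.36, adjusted p = 0.000108, limma). Mmp14, a membrane-bound protease, had 10.18, 10.19 and 9.57 in ColXN617K and 12.35, 11.97 and 12.61 in wildtype. Mmp9, which is also an osteoclast marker, fell by 2.03. Htra1, a serine protease, rose by 1.08, as did Plaur, the urokinase receptor (1.75), and Timp1, a protease inhibitor, differed by 0.71 and was not called. Basement membrane genes were the list with the largest share of falls among those outside the cell markers, 8 of 14 (57.1%, beside 7.58% of all genes), with a median of -1.42, and with arrays scaled by their medians over all probes 1 of the list fell. Nid1, nidogen, was at 6.02, 6.19 and 5.83 in ColXN617K and 10.02, 10.41 and 10.09 in wildtype, at least 7.90-fold lower, and Col4a1 had 9.10, 9.09 and 8.59 in ColXN617K and 12.11, 11.46 and 12.20 in wildtype. The endothelial markers fell on the same arrays. Wildtype replicate 2 was the lowest wildtype array in Col4a1, Col4a2 and Col18a1, as in the summed endothelial markers, but the highest in Nid1. A link was not tested. Lamb3, a laminin chain of epithelia, rose instead, with 10.75, 10.75 and 11.05 in ColXN617K and 6.84, 7.15 and 6.76 in wildtype, at least 9.23-fold.

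Mineralization and the fate of the hypertrophic cell gave 4 falls (22.2%, beside 7.58% of all genes) and no rise among 18 genes. Under median scaling over all probes 1 fell. Ibsp, bone sialoprotein, had 8.31, 8.42 and 9.76 in ColXN617K and 12.01, 11.78 and 12.57 in wildtype (-3.29, adjusted p = 0.000178, limma). Alpl, tissue-nonspecific alkaline phosphatase, had 11.11, 11.09 and 11.51 in ColXN617K and 13.19, 13.49 and 13.08 in wildtype (-2.01). Neither gene overlapped, and ColXN617K replicate 3 was the highest of its group in both. The transcription factor Sox9 had 13.43, 13.66 and 12.94 in ColXN617K and 12.50, 12.84 and 12.48 in wildtype, a difference of 0.74 that was not called (adjusted p = 0.0313). Sox4 fell to 6.94, 7.28 and 7.02 in ColXN617K, against 10.68, 10.56 and 10.76 in wildtype (-3.59, adjusted p = 2.80e-06, limma), and Sox11 and Ets1 fell too, of 18 factors tested.

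**Figure D3:**
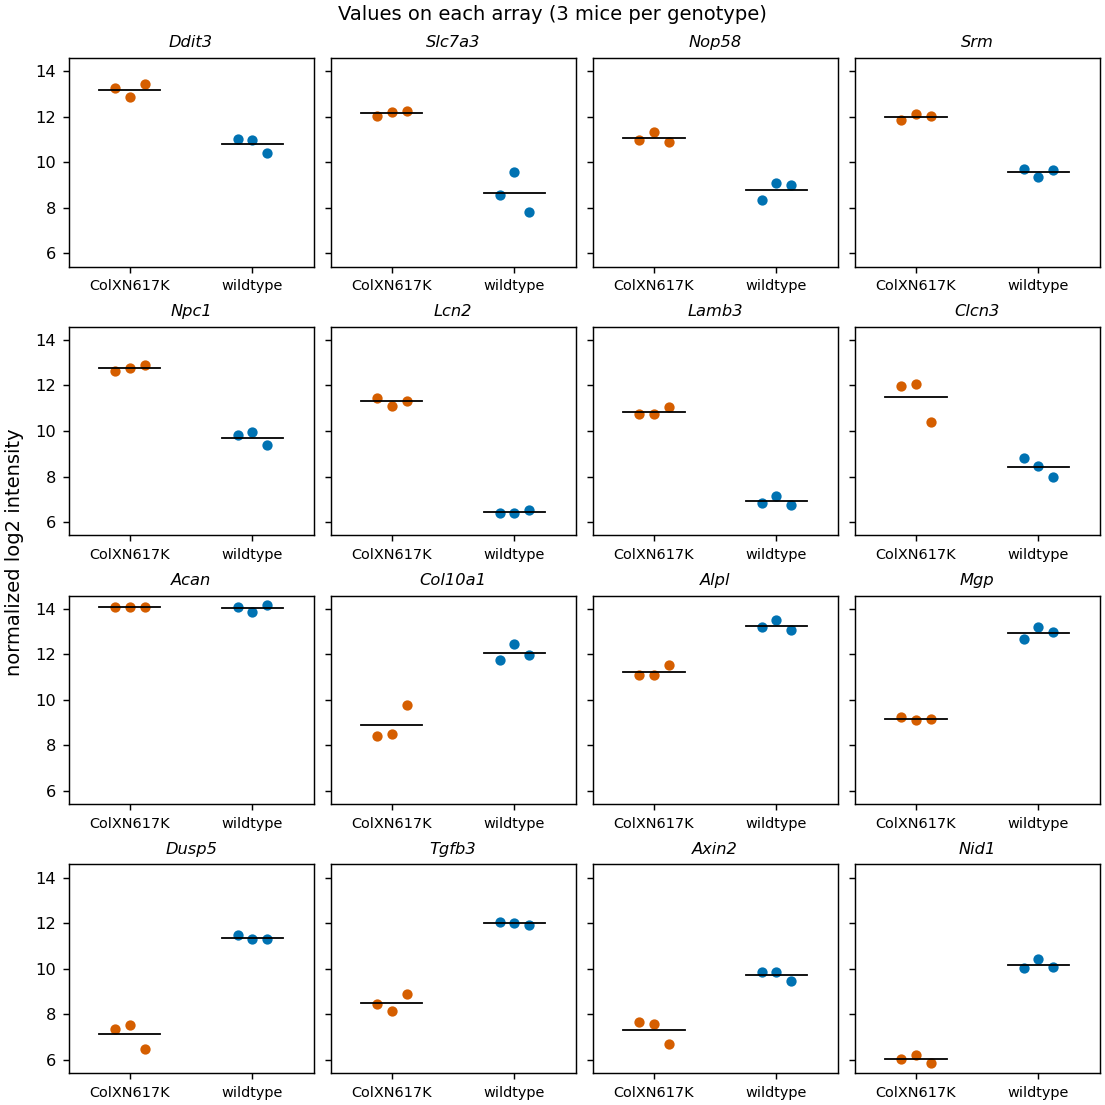
Normalized log2 intensity on each array (1 point per mouse, 3 per genotype) for 16 genes of different functions, with ColXN617K at the left and wildtype at the right of each panel and a bar at the mean. The groups do not overlap in any panel but that of Acan.

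Of 11 genes of hedgehog and PTHrP signalling 2 fell (18.2%, beside 7.58% of all genes) and 1 rose. Under median scaling over all probes none was called. Ihh, which hypertrophic cells send to resting and dividing cells, had 10.42, 9.91 and 10.51 in ColXN617K and 12.94, 12.77 and 12.66 in wildtype (-2.51, adjusted p = 0.000218, limma). Pth1r, the receptor of the answering signal, had 11.75, 11.56 and 13.25 in ColXN617K and 13.67, 13.73 and 13.82 in wildtype, and its replicate 3 lay close to wildtype (adjusted p = 0.00646 with it, 2.40e-05 without it). Of 28 genes of BMP and TGF-beta signalling 10 fell (35.7%, beside 7.58% of all genes) and 1 rose. Among the ligands Tgfb3 had 8.46, 8.15 and 8.90 in ColXN617K and 12.05, 12.02 and 11.90 in wildtype (-3.49, adjusted p = 1.61e-06, limma), and Bmp8a fell by 1.63. Of the mediators Smad3 had 7.23, 7.49 and 7.04 in ColXN617K and 9.61, 9.89 and 11.06 in wildtype. Ltbp3, which stores latent TGF-beta in the matrix, fell by 2.38, and the receptors Tgfbr1, Tgfbr2 and Bmpr2 differed by -0.26, -0.75 and -0.34 and were not called. Tgfbi, a secreted protein named for its induction by TGF-beta, went against the rest, with 10.05, 10.02 and 9.59 in ColXN617K and 7.43, 6.74 and 8.28 in wildtype. With arrays scaled by their medians over all probes 1 of the list fell and 1 rose.

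In WNT signalling 7 of 17 fell (41.2%, beside 7.58% of all genes) and none rose, with a median of -1.19. Under median scaling over all probes none was called. Axin2, a standard readout of the beta-catenin pathway, had 7.65, 7.55 and 6.70 in ColXN617K and 9.86, 9.84 and 9.44 in wildtype (-2.42, adjusted p = 8.59e-05, limma), and Tcf7l2, which carries beta-catenin to DNA, had 8.78, 8.48 and 7.07 in ColXN617K and 10.97, 11.48 and 11.14 in wildtype. Beta-catenin itself, Ctnnb1, differed by -0.51 and was not called. The ligand Wnt4 fell by 2.11, and its ColXN617K replicate 3 was close to the lowest wildtype array (7.89, 8.06 and 10.07 in ColXN617K, 11.19, 10.21 and 10.94 in wildtype). In FGF and IGF signalling 6 of 20 fell (30.0%) and 1 rose. The binding proteins split, with Igfbp3 at least 4.60-fold and Igfbp2 at least 2.96-fold lower and Igfbp6 at least 1.85-fold higher. Ghr, the growth hormone receptor, fell by 2.51, and Npr3, which clears C-type natriuretic peptide, a known regulator of long bone growth, fell at least 4.89-fold. Igf2 and Igf1r were not called (-0.34 and 0.52). Of the CCN proteins Ccn2, a matricellular factor of hypertrophic cartilage, had 12.79, 13.13 and 12.85 in ColXN617K and 14.61, 14.61 and 14.51 in wildtype (-1.65, adjusted p = 4.67e-05, limma). Its wildtype values lay at or near 14.61, the highest value on every array, so the size of its fall could be understated. Ccn1 and Ccn5 fell and Ccn4 rose by 1.01. Guidance genes, the list of Notch, ephrins, semaphorins and plexins, fell in 8 of 21 cases (38.1%). Sema7a fell at least 6.86-fold and Sema3f at least 5.01-fold. Nrp1, a receptor of semaphorins and of VEGF, had 9.69, 9.34 and 9.64 in ColXN617K and 12.10, 11.85 and 12.17 in wildtype (-2.48). Vessels express several of these genes, and the endothelial markers fell on the same arrays, but a link was not tested. Of 14 secreted regulators of vessels 4 fell (28.6%), with a median of -0.53, or none with arrays scaled by their medians over all probes. The 4 were the platelet-derived growth factor Pdgfb (-1.94), Angpt2 (-1.44), a ligand of the receptor TIE2, and the heparin-binding Ptn (-1.62) and Mdk (-1.95). Angptl6 was the 1 that rose, at 10.35, 9.86 and 9.77 in ColXN617K and 5.82, 5.68 and 5.71 in wildtype, at least 5.11-fold.

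Of 34 genes of actin and contractility 6 fell (17.6%, beside 7.58% of all genes) and 1 rose. Under median scaling over all probes none fell. The 6 falls included Rhoc, a small GTPase (7.41, 7.02 and 5.88 in ColXN617K, 9.82, 9.82 and 9.30 in wildtype), the light chain Myl6 (-1.40) and the monomer-binding Tmsb4x. Flnc, filamin C, rose, with 12.02, 12.22 and 11.96 in ColXN617K and 8.09, 8.66 and 7.13 in wildtype (4.10, adjusted p = 3.06e-05, limma). It is known from muscle, as is Trim54 (at least 3.15-fold higher). The muscle markers given above were higher in value on the same arrays, and a link with these 2 genes was not tested. The muscle gene Acta1 had 11.69, 8.93 and 11.00 in ColXN617K and 7.22, 7.28 and 7.49 in wildtype, and was not called. The keratin genes Krt8, Krt17 and Krt19 of simple and stressed epithelia rose at least 2.68-fold, 2.05-fold and 1.39-fold, of 16 keratins and related genes tested, whose median relative to all genes changed side with the scaling, and Itgb4, an integrin of epithelia, rose by 1.13. Of 24 cell cycle genes 5 fell (20.8%), or 1 with arrays scaled by their medians over all probes. The 5 included Ccnd1, cyclin D1 (8.07, 7.95 and 6.88 in ColXN617K, 10.63, 8.87 and 10.34 in wildtype), and the mitotic checkpoint kinase Bub1b (at least 5.68-fold lower). Mcm6 rose at least 1.90-fold by its brightest probe, and it is 1 of the 2 genes whose probes were called in opposite directions.

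Genes of ion and solute transport moved both ways. In ion handling 4 of 25 rose and 3 fell. The chloride exchanger Clcn3 had 11.99, 12.05 and 10.39 in ColXN617K and 8.83, 8.48 and 7.96 in wildtype (3.05, adjusted p = 0.000136, limma), and the metallothionein Mt1, which binds zinc, had 13.57, 13.81 and 12.63 in ColXN617K and 10.48, 9.64 and 10.80 in wildtype. Calcium handling was split. The pump Atp2a3 rose by 2.19, and Stim1, the calcium sensor of the endoplasmic reticulum, and Itpr2, a release channel there, fell by 1.82 and 1.38. Of 143 solute carriers 14 rose and 11 fell, a share of 17.5% beside 15.0% of all genes. They included Slc6a12, a betaine transporter (2.70), and Slc19a2, which takes up thiamine (at least 2.69-fold higher), and on the lower side Slc37a2 (-3.21) and Slco2b1 (-2.53). Of 109 zinc finger genes 5 rose and 3 fell, a share of 7.34%. Of 35 F-box genes 3 rose and 1 fell (11.4%), and of 36 RAB GTPases 4 rose and none fell (11.1%). The direction of the RAB and F-box medians relative to all genes depended on the scaling. Aldh1a3, which makes retinoic acid, fell to 8.99, 9.30 and 8.87 in ColXN617K, against 12.12, 12.68 and 12.09 in wildtype (-3.24, adjusted p = 0.000111, limma). Of 32 proteasome genes 3 rose and 1 fell, Psmc2 among the first (1.11), and Psmb5 fell, with 8.72, 9.43 and 7.53 in ColXN617K and 10.62, 10.77 and 10.30 in wildtype.

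Outside all lists, among changes of 1 to 2 on the log2 scale, the clearest rises were in Kcnk6, a potassium channel, with 11.69, 11.81 and 11.97 in ColXN617K and 9.67, 10.01 and 9.95 in wildtype (adjusted p = 3.07e-05, limma), and in Dhrs7, a short-chain dehydrogenase of the endoplasmic reticulum, with 12.29, 12.36 and 11.97 in ColXN617K and 10.33, 10.41 and 10.23 in wildtype. Mib2, a ubiquitin ligase of the Notch pathway (1.87), Plpp2, a lipid phosphatase (1.69), and Tpd52 (1.69) rose as steadily. The clearest falls were in Nkx6-1, a homeobox factor known from beta cells and neurons, with 7.50, 7.48 and 7.23 in ColXN617K and 9.29, 9.41 and 9.09 in wildtype, and in Klhl24, with 9.15, 9.03 and 9.12 in ColXN617K and 10.62, 10.89 and 10.91 in wildtype. Csnk1e, casein kinase 1 epsilon (-1.91), and Phc2, a Polycomb protein (-1.70), fell likewise. At the other end, only 192 genes (2.51%) had a 95% interval of the difference inside -0.5 to 0.5. The 10 brightest of them, Mfge8, Snorc, P4hb, Atp5b, Rplp1, Rpl38, Actb, Vcp, Cdkn1c and Rps19, differed by -0.13 to 0.13, but all lay near the top of the scale, where a change could go undetected, and a dimmer probe of Actb fell by 3.26.

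Col10a1 lies on chromosome 10, and its neighbours were examined because the line was made by gene targeting and the mice were of mixed background. Of the 20 tested genes on either side of it in gene order, 2 rose (Moxd1 and Sobp) and 5 fell (Ccn2, Ptprk, Marcks, Cdk19 and Sesn1), a share of 17.5% beside 15.0% of all genes. The nearest neighbours on the 2 sides, Rwdd1 (0.30) and Frk (-0.13), were not called. The origin of this stretch was not tested.

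The test of where the collagen X mutation with XBP1 present differs from the same mutation without it is that of ColXN617K against C/X. It called 376 of the 7642 genes (4.92%), 156 higher (2.04%) and 220 lower (2.88%) in ColXN617K, and the interaction, the difference between the effect of the mutation with XBP1 (ColXN617K minus wildtype) and without it (C/X minus Xbp1CartΔEx2), called 113 (1.48%). For most genes described above neither did. Fgf21 had 13.68, 13.54 and 13.64 in ColXN617K, 12.97, 12.98 and 13.19 in C/X and 7.25, 7.09 and 7.26 in wildtype, and the ColXN617K and C/X arrays differed by 0.57 (95% interval 0.17 to 0.97). Col10a1 had 9.27, 9.33 and 8.35 in C/X, a difference of -0.09 from ColXN617K (95% interval -0.96 to 0.79). Dusp5 had 6.33, 6.68 and 6.92 in C/X, on no array well above background, so no difference from ColXN617K is given. A group of genes fell in ColXN617K and lay higher in C/X. Alpl had 11.11, 11.09 and 11.51 in ColXN617K, 12.63, 12.64 and 12.87 in C/X and 13.19, 13.49 and 13.08 in wildtype (ColXN617K minus C/X -1.47, adjusted p = 0.000647, limma), and Nrp1 had 11.60, 11.48 and 11.87 in C/X (ColXN617K minus C/X -2.10, adjusted p = 0.000116, limma). Junb (-2.51), Smad3 (-2.35), Mdk, a heparin-binding growth factor (-1.53), Rhoc (-2.76), Sdc3 (-1.31) and Atp5l (-2.03) were also lower in ColXN617K than in C/X by the call rule. Genes that had risen in ColXN617K and were higher there than in C/X included Npc1, with 11.61, 11.61 and 11.64 in C/X (ColXN617K minus C/X 1.13, adjusted p = 0.00250, limma), Egln3 (1.79), Cycs (1.08), Tpd52 (1.46) and Anxa4, a calcium-dependent membrane protein, which was not well above background on any C/X array (at least 6.23-fold higher in ColXN617K). Lamb3 was lower in ColXN617K than in C/X (-1.54), and Lcn2 differed by -0.97, just under the fold minimum. ColXN617K replicate 3 and C/X replicate 3 both had few probes above background for their genotype, 17.1% and 17.2%. Without both arrays 299 genes were higher and 325 lower in ColXN617K than in C/X. All 14 genes named here as called against C/X were still called then, and with arrays scaled by their medians over all probes 12 of them lost the call. Of these 14, the interaction called only Npc1, Cycs, Anxa4, Atp5l and Sdc3. For the others, ColXN617K minus C/X may hold an effect of losing XBP1 that does not depend on the mutation, which was not separated here.

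**Figure D4:**
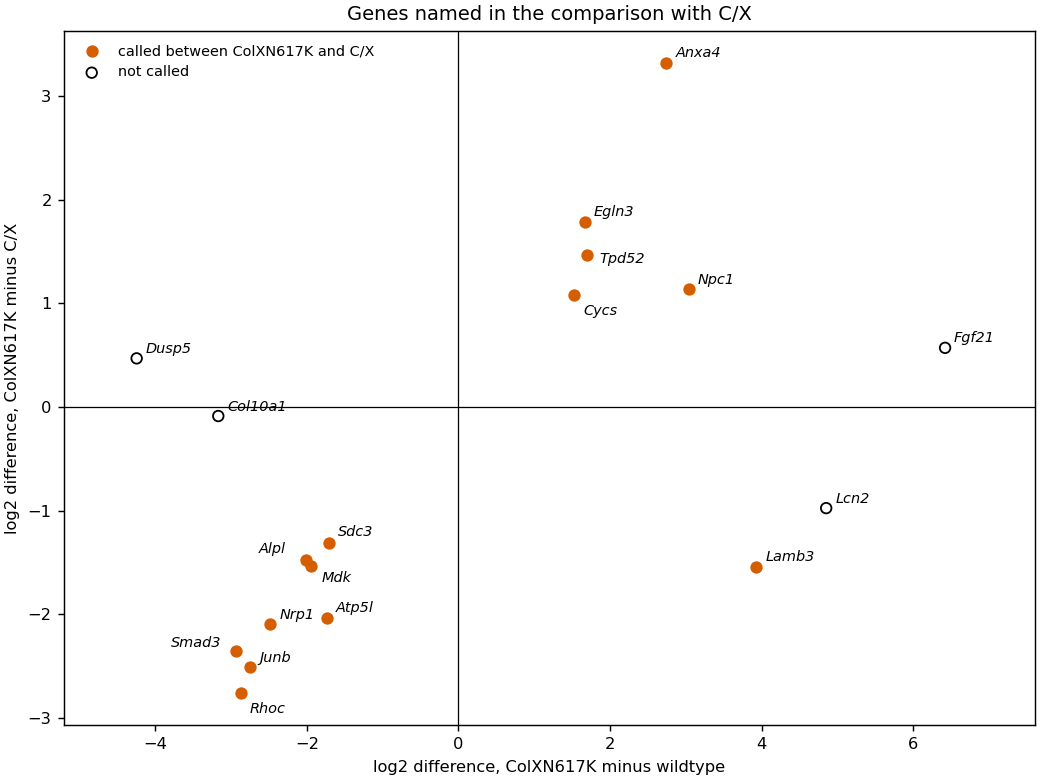
Difference between ColXN617K and wildtype (horizontal axis) and between ColXN617K and C/X (vertical axis), both on the log2 scale, for the genes of this comparison named in the text, 1 point per gene. Filled points were called between ColXN617K and C/X, open points were not, and the axes share the ColXN617K arrays, so the points are shown for their values and not as a correlation. Fitted differences are plotted, also for genes not well above background in one of the genotypes.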

How the data were processed

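Hypertrophic-zone RNA from 12 mice was hybridised to Illumina bead arrays, 3 per genotype. The deposited tables held a summarised intensity per probe, not yet normalized, and a detection score headed as a p-value but running the other way, so that a score above 0.95 marks a probe above background. The authors also deposited log2 values that they had normalized with limma, for 11338 probes, which differed from the values used here by at most 0.0339. From the intensities, values were background corrected and quantile normalized (neqc, offset 16) and fitted with limma 3.58.1 in R 4.3.3, on 1 mean per genotype, over the 12023 probes above background on at least 3 arrays (8 residual degrees of freedom). A call needed a fold of 2 and an adjusted p of at most 0.01. The fit was tested on simulated data. Of the tested probes 9866 had 1 gene symbol in the platform annotation and 2157 had none or several. The gene lists, families and members were chosen with earlier results of these data known. Named were, per list, up to 4 members with the largest changes in each direction and 3 bright members not called, 12 moderate changes outside the lists in each direction, the 10 brightest steady genes, the genes the study itself names, called neighbours of Col10a1 and the 5 largest changes in each direction, and beside these, chosen after their values were seen, other called members of a list counted in the text, promoter matches, the nearest neighbours of Col10a1 and the genes with opposed probes. The number of arrays limits the precision, and the mice are separate animals. Alternatives covered background correction, scaling, filters, weights, moderation, thresholds, the authors' values, replicate blocks and left-out arrays.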

Additional observations from a re-analysis of the deposited data

Results flagged for a closer look

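The effect of the collagen X mutation differed with and without XBP1, by the interaction in limma at the same fold and adjusted p, for 14 of the 220 genes named above and 1.48% of all tested genes. Most of these were named for their difference from wildtype, which is a term of the interaction, so the shares cannot be set against each other. The effect with XBP1 is ColXN617K minus wildtype and the effect without it is C/X minus Xbp1CartΔEx2, both log2 differences over 3 mice per genotype. Anxa4 was not well above background on any C/X array, nor were Cxcl1, Aldh1l2 and Mcm6 on any wildtype array or Cxcl1 on any C/X array, so for these 4 genes the differences and the interaction are fitted values and not measured sizes. For Anxa4 the fitted effect was 2.74 with XBP1 and -3.40 without it, an interaction of 6.14 (adjusted p = 0.00142). For the chemokine gene Cxcl1 the fitted effect was 4.69 with XBP1 and -0.42 without it, an interaction of 5.11 (adjusted p = 0.00252), and for Npc1 the effect was 3.04 with XBP1 and 0.84 without it, an interaction of 2.20 (adjusted p = 0.00143). The folate enzyme gene Aldh1l2 had a fitted effect of 4.63 with XBP1 and 1.26 without it, an interaction of 3.36 (adjusted p = 0.00935), and Mcm6 had one of 1.56 with XBP1 and -0.48 without it, an interaction of 2.04 (adjusted p = 0.00315). The protease gene Mbtps1 had -1.33 with XBP1 and 0.88 without it, an interaction of -2.20 (adjusted p = 0.00174).

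In the mitochondrial genes Atp5l, Cycs and Mrpl53 the interaction was -2.45, 1.74 and -1.78, and in the ribosomal gene Rpl29 it was -1.65. It was -1.69 in Bad, -1.60 in Myl6, -1.41 in Pmvk and -1.61 in Sdc3, where the effect without XBP1 lay between -0.10 and 0.39. All 14 passed without ColXN617K replicate 3. With arrays scaled by their medians over all probes only Anxa4 passed, with an interaction of 6.89. Groups of 3 arrays were too small to look for single outlying values by rule.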

How the results depend on the processing

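The 1740 probes called between ColXN617K and wildtype became 830 without background correction, 796 with median scaling over all probes (553 of them called in both, same direction), 1029 with the compared genotypes alone and 3557 with array weights. Between ColXN617K and C/X 633 became 269, 17, 53 and 1439 under the same settings, 383 with no filter on dim probes and 1146 at an adjusted p of at most 0.05. For the interaction 205 became 1 with median scaling over all probes, 118 over tested probes, 123 with no filter, 2058 with array weights and 879 at an adjusted p of at most 0.05, and it cannot be computed from the compared genotypes alone. With 1 array left out the counts ranged from 1224 to 2840 (wildtype), 235 to 1189 (C/X) and 55 to 820 (interaction). The highest of each was without ColXN617K replicate 3. Without it and C/X replicate 3, a choice made after seeing the data, they were 3343, 1020 and 979. The split of 879 higher and 861 lower became 700 and 96 with median scaling over all probes.

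Of the 178 named genes called, 107 lost the call with median scaling over all probes, 55 with a replicate block for the description number, 52 without background correction, 46 with no filter on dim probes, 49 with the compared genotypes alone and none with a replicate block for the title number or with the authors' normalized values. Rpl21 reversed under median scaling over all probes, to 0.02. With 1 array left out 52 lost it at least once, with an adjusted p of at most 0.0429, Pth1r, Slc38a2, Derl3, Cebpb, Creb3l2, Bcl2l11, Jun, Tnc, Wnt4, Srebf2, Mvk, Pmvk, Ulk1, Ulk2, Ccnd1 and Mmp9 among them. The causes were not tested, beyond the smaller number of arrays in these fits.

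The sample titles and descriptions give different replicate numbers. Correlations of deviations from the group means between same-numbered ColXN617K and wildtype arrays were 0.002, 0.223 and 0.153. Between arrays of different number they ranged from -0.192 to 0.11. So few values cannot decide whether the numbers mark a pairing. With a replicate block for the title number 1917, 705 and 179 probes were called, and with that for the description number 1065, 459 and 107, in the order of comparisons above. A block for the chip was not run, because the tables do not name the chip.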
